A study of Mus musculus with 23 samples.

Results

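Cdx2, Krt8, Krt18 and Ascl2 are 4 genes that mark the trophectoderm, the outer layer of the blastocyst, and they are described here across 4 states of cultured mouse pluripotent cells. Every probe annotated to one of the 4 symbols was taken, which gave 5 probes (1 each for Cdx2, Krt8 and Krt18, and 2 for Ascl2) of 45281 probes on the Illumina array, or 4 of 11494 named genes. The study asked whether Blimp1 (Prdm1), a transcriptional repressor needed by germ cells, is also needed for epiblast stem cells (epiSCs) to revert to embryonic stem cells (ESCs) and for ESCs in culture. Lines were Blimp1 null (-/-) or Blimp1 heterozygous (+/-), on a background of the C57Bl6, CBA and 129 strains, and 1 array was run for each line and state. All 22 pluripotent arrays came from lines with a Blimp1 mutant allele, so that the heterozygous lines were the control and no wild type pluripotent line was included.

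The revertant ESCs (rESCs) were epiSCs that had been moved to LIF and fetal calf serum on feeder cells, with 3 null arrays (lines J2.3, BL2 and BL6) and 2 heterozygous arrays (BL3 and BL7). The epiSCs were grown in activin A and basic FGF on feeders of mouse embryonic fibroblasts, with 2 null arrays (BL2 and BL6) and 3 heterozygous arrays (BL3, BL4 and BL7). The ESCs were 6 lines, each analysed in both of their media, with 3 null lines (JAG1, JAG2 and B12) and 3 heterozygous lines (PAN1, PUM3 and CHE4). In 2i/LIF the ESCs received the MEK inhibitor PD0325901, the GSK3 inhibitor CHIR99021 and LIF, and in serum they received LIF and fetal calf serum with or without feeders, so that serum changed together with the inhibitors. The sources used here do not give whether the ESC cultures on the arrays had feeders. The last array was 1 culture of wild type mouse embryonic fibroblasts (MEF). With 1 array for each line and state, the p-values measured the spread between lines. A state could not be told apart from its medium, except for rESCs and ESCs in serum. Both of these received LIF and fetal calf serum, but they came from different lines.

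Cdx2 is a homeobox transcription factor that specifies trophectoderm and opposes Oct4 in the early embryo. Krt8 and Krt18 are the type II and type I keratins that pair into the first intermediate filaments of the embryo, in trophectoderm and other simple epithelia. Ascl2 (Mash2) is a basic helix-loop-helix factor that the spongiotrophoblast of the placenta requires, and its gene is imprinted, with expression from the maternal copy.

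Cdx2, Krt8 and Krt18 carry the differences between media, so the windows just upstream of these 3 genes are shown. Krt8 and Krt18 are neighbours on chromosome 15, 23873 bases apart. The sequences are 250 bases from RefSeq (GRCm38.p6), each read 5′ to 3′ on the strand of its gene and ending at the base before the annotated start. Capitals mark the octamer ATGCAAAT, the letters CCAAT (printed here as their reverse complement) and the E-box CACCTG.
Cdx2 chr5:147307250-147307499 (minus strand): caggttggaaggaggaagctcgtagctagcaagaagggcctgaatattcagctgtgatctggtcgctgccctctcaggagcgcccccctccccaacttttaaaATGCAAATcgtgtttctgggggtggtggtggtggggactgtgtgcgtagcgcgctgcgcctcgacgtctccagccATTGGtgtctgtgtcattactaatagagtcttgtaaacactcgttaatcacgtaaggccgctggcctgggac
Krt8 chr15:102004343-102004592 (minus strand): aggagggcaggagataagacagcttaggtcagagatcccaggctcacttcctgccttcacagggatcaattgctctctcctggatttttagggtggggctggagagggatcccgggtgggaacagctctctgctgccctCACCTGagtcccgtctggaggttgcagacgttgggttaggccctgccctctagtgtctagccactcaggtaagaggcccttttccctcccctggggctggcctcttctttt
Krt18 chr15:102027966-102028215 (plus strand): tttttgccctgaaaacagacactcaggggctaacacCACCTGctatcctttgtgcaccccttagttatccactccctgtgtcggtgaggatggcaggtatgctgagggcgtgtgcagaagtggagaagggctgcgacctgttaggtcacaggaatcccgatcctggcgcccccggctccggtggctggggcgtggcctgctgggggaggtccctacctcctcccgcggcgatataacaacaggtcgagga

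The octamer, which POU factors such as Oct4 can bind, lay 147 to 140 bases before the Cdx2 start, and 1.6% of 32851 mouse windows of this length held it on either strand. CCAAT lay on the opposite strand 72 to 68 bases before the Cdx2 start and was in 33.8% of all windows. The E-box lay 111 to 106 bases before the Krt8 start and 214 to 209 bases before the Krt18 start, against 17.2% of all windows with it. The Ascl2 window, chr7:142969265-142969514, held CCAAT 3 times and the E-box once (on the opposite strand). No other motif searched had a match in the 4 windows on either strand. These were TATAAA (the TATA box, in 12.4% of all windows), the letters CTTTGA that TCF factors bind (13.8% of all windows) and the AP-1 letters TGACTCA (4.46% of all windows). The marked motifs did not overlap each other. The motifs were chosen with these sequences in view, and a match describes letters and not a bound site.

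On the annotated genome Cdx2 lay at chr5:147300900-147307249, Ascl2 at chr7:142966822-142969264, Krt8 at chr15:101996711-102004342 and Krt18 at chr15:102028216-102032026. A probe was called detected on an array where the scanner's detection p was under 0.01, and 12197 to 14599 probes were detected per array. Of 7 core pluripotency markers 6 or 7 were detected on every pluripotent array and 0 on the MEF array. All 10 naive markers were detected on every rESC and ESC array, and 3 to 10 in epiSCs, with all 10 in line BL6. The number of arrays limits the precision of every value, and levels are normalized log2 signals, which cannot be compared between probes. In these bulk cultures fewer cells that express a gene and less RNA per cell cannot be told apart.

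Cdx2 was detected only in ESCs in 2i/LIF. Its 3 null lines had levels of 7.98 (JAG1), 8.40 (JAG2) and 8.65 (B12), and its 3 heterozygous lines 6.19 (PAN1), 6.65 (PUM3) and 7.92 (CHE4). The Cdx2 level was 5.14 in J2.3, 4.88 in BL2, 4.72 in BL6, 5.01 in BL3 and 4.49 in BL7 rESCs, and it was 4.44 in BL2, 4.72 in BL6, 4.40 in BL3, 4.46 in BL4 and 4.81 in BL7 epiSCs. None of these arrays, none of the 6 serum arrays (4.44 to 4.65, median 4.53) and not the MEF array (4.36) gave a detected Cdx2 signal. The 6 ESC arrays in 2i/LIF lay above all other arrays, and the 3 other states overlapped one another at the level of undetected probes.

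The same 6 lines had a Cdx2 level of 7.63 ± 0.99 in 2i/LIF and of 4.52 ± 0.08 in serum (SD, n = 6 each). The fitted difference was 3.06 on the log2 scale (SE 0.35, 95% interval 2.31 to 3.82, limma adjusted p = 1.79e-05). Since Cdx2 was not detected in serum, the fold is a lower bound, set by the dimmest signal among detected probes on each serum array, and Cdx2 was at least 5.69-fold higher in 2i/LIF. The line by line difference was 3.45 in JAG1, 3.75 in JAG2, 4.12 in B12, 1.73 in PAN1, 2.13 in PUM3 and 3.48 in CHE4, so that every line was higher in 2i/LIF. These differences use the measured serum signals, which were undetected, and the bound is the firmer value. Cdx2 was at least 5.82-fold lower in rESCs than in ESCs in 2i/LIF (difference -2.85, SE 0.40, limma adjusted p = 0.000202). It was at least 5.75-fold lower in epiSCs than in ESCs in 2i/LIF (difference -2.99, SE 0.38, limma adjusted p = 2.03e-05). The 3 comparisons among rESCs, epiSCs and ESCs in serum were not tested for Cdx2, because too few arrays detected it.

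**Figure D1:**
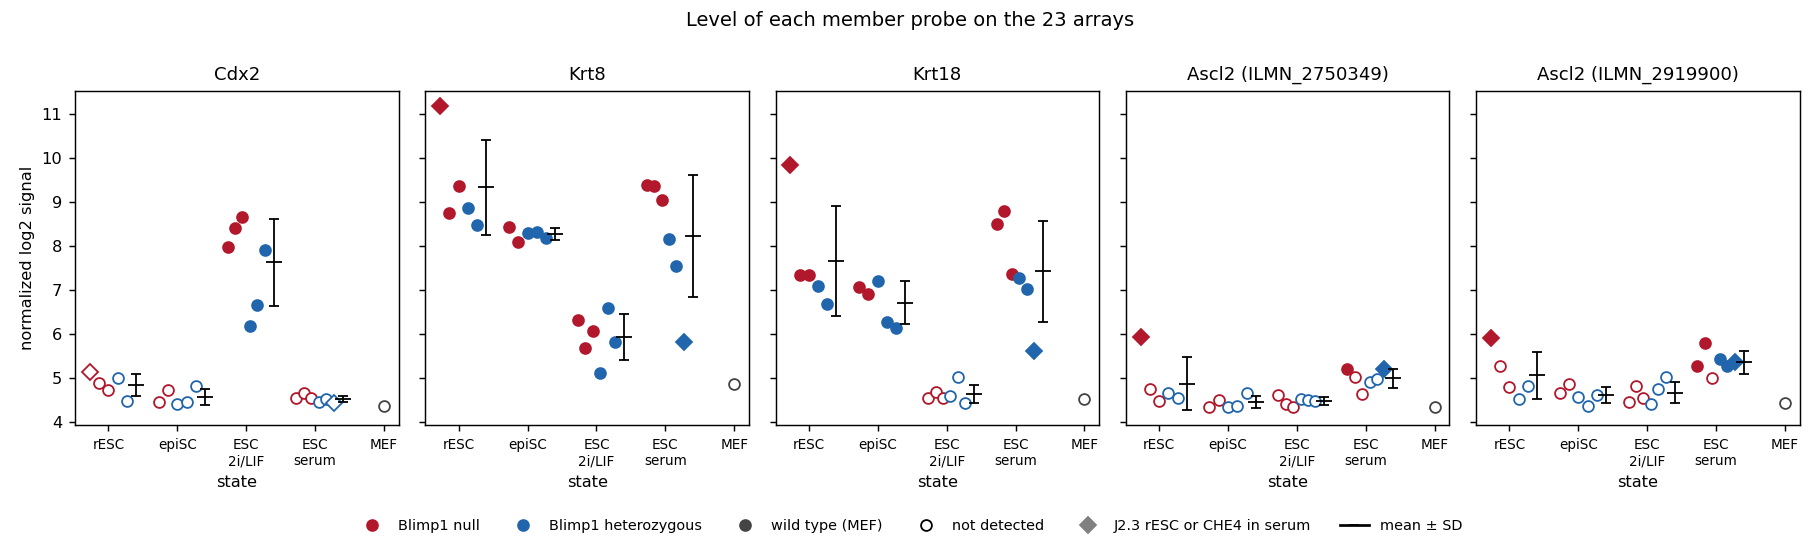
Normalized log2 signal of the 5 probes (vertical axis) on the 23 arrays by state (horizontal axis). Each point is 1 array, red for null and blue for heterozygous lines, open where the probe was not detected, with diamonds for the J2.3 rESC and the CHE4 serum array and black bars for the mean ± SD. Cdx2 stands apart in 2i/LIF, between 6.19 and 8.65, while all Krt18 points in 2i/LIF are open.

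Krt8 had the reverse pattern, with its lowest levels in 2i/LIF, and it was detected on all 22 pluripotent arrays. Its level was 11.19 in J2.3, 8.75 in BL2, 9.36 in BL6, 8.88 in BL3 and 8.49 in BL7 rESCs. In epiSCs it was 8.44 in BL2, 8.09 in BL6, 8.31 in BL3, 8.33 in BL4 and 8.18 in BL7. The epiSC lines lay close together (8.27 ± 0.14, SD, n = 5) and all lay below the lowest rESC array. In 2i/LIF the level was 6.31, 5.67 and 6.08 in the null lines JAG1, JAG2 and B12, and 5.12, 6.58 and 5.83 in the heterozygous lines PAN1, PUM3 and CHE4. In serum it was 9.39, 9.37 and 9.06 in these null lines, and 8.17, 7.54 and 5.82 in these heterozygous lines. Serum levels thus spread over a wide range, and CHE4 in serum was the one array that reached into the range in 2i/LIF. The MEF array had a Krt8 level of 4.86, not detected.

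Krt8 was lower in 2i/LIF than in serum (5.93 ± 0.52 against 8.22 ± 1.39, SD, n = 6 each). The limma adjusted p was 0.00258 (fitted difference -2.30, SE 0.52). Line by line the difference was -3.08 in JAG1, -3.70 in JAG2, -2.98 in B12, -3.05 in PAN1, -0.96 in PUM3 and 0.01 in CHE4, so that CHE4 alone was not lower in 2i/LIF. Without the CHE4 serum array the difference was -2.80 (limma adjusted p = 6.97e-05), and with no filter on dim probes its adjusted p was 0.0143, above the threshold of 0.01, so that the call was lost.

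Krt8 was 11.0-fold higher in rESCs than in ESCs in 2i/LIF (difference 3.45, SE 0.43, limma adjusted p = 7.99e-05). Without J2.3 the difference was 3.00. EpiSCs exceeded ESCs in 2i/LIF 5.02-fold (difference 2.33, SE 0.21, limma adjusted p = 9.96e-07). Against ESCs in serum no call was made, with differences of 1.12 for rESCs (95% interval -0.30 to 2.53, limma adjusted p = 0.291) and of 0.04 for epiSCs (-1.09 to 1.17, limma adjusted p = 0.953). Between rESCs and epiSCs the Krt8 levels did not overlap, but the difference of 1.04 missed the threshold (95% interval 0.15 to 1.94, limma adjusted p = 0.0660). It was 0.58 without J2.3 (adjusted p = 0.0180). In the lines with both states the difference of rESCs from epiSCs was 0.31 in BL2, 1.27 in BL6, 0.57 in BL3 and 0.31 in BL7.

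Krt18 was detected on all arrays of rESCs, epiSCs and ESCs in serum and on none in 2i/LIF. Its level in rESCs was 9.84 in J2.3, 7.35 in BL2, 7.34 in BL6, 7.08 in BL3 and 6.69 in BL7. In epiSCs it was 7.06 in BL2, 6.91 in BL6, 7.21 in BL3, 6.27 in BL4 and 6.13 in BL7. J2.3 was the highest of all arrays for Krt18, while the other rESC arrays overlapped the epiSC arrays. In 2i/LIF the undetected signal was 4.53, 4.69 and 4.55 in the null lines JAG1, JAG2 and B12, and 4.59, 5.01 and 4.44 in the heterozygous lines PAN1, PUM3 and CHE4. In serum the Krt18 level was 8.49, 8.79 and 7.36 in the null lines, and 7.27, 7.02 and 5.60 in the heterozygous lines. The 2 media did not overlap, and CHE4 was again lowest in serum. The MEF array did not detect Krt18 (4.51).

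Krt18 was at least 4.94-fold lower in 2i/LIF than in serum (4.64 ± 0.20 against 7.42 ± 1.14, SD, n = 6 each). The fitted difference was -2.75 (SE 0.41, limma adjusted p = 0.000135). All 6 lines were lower in 2i/LIF, with line differences of -3.96 in JAG1, -4.11 in JAG2, -2.81 in B12, -2.67 in PAN1, -2.01 in PUM3 and -1.16 in CHE4. Relative to ESCs in 2i/LIF, Krt18 was at least 6.09-fold higher in rESCs (at least 4.15-fold without J2.3, difference 3.09, SE 0.44, limma adjusted p = 0.000235) and at least 3.00-fold higher in epiSCs (difference 2.02, SE 0.19, limma adjusted p = 1.52e-06). The comparison of rESCs with epiSCs gave no call for Krt18 (difference 0.94, 95% interval -0.15 to 2.03, limma adjusted p = 0.164), and without J2.3 the difference was 0.40. Against serum the difference was 0.24 in rESCs (95% interval -1.10 to 1.57, limma adjusted p = 0.835) and -0.70 in epiSCs (95% interval -1.69 to 0.30, limma adjusted p = 0.223). Without the CHE4 serum array the epiSC difference was -1.06 (adjusted p = 0.0265).

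**Figure D2:**
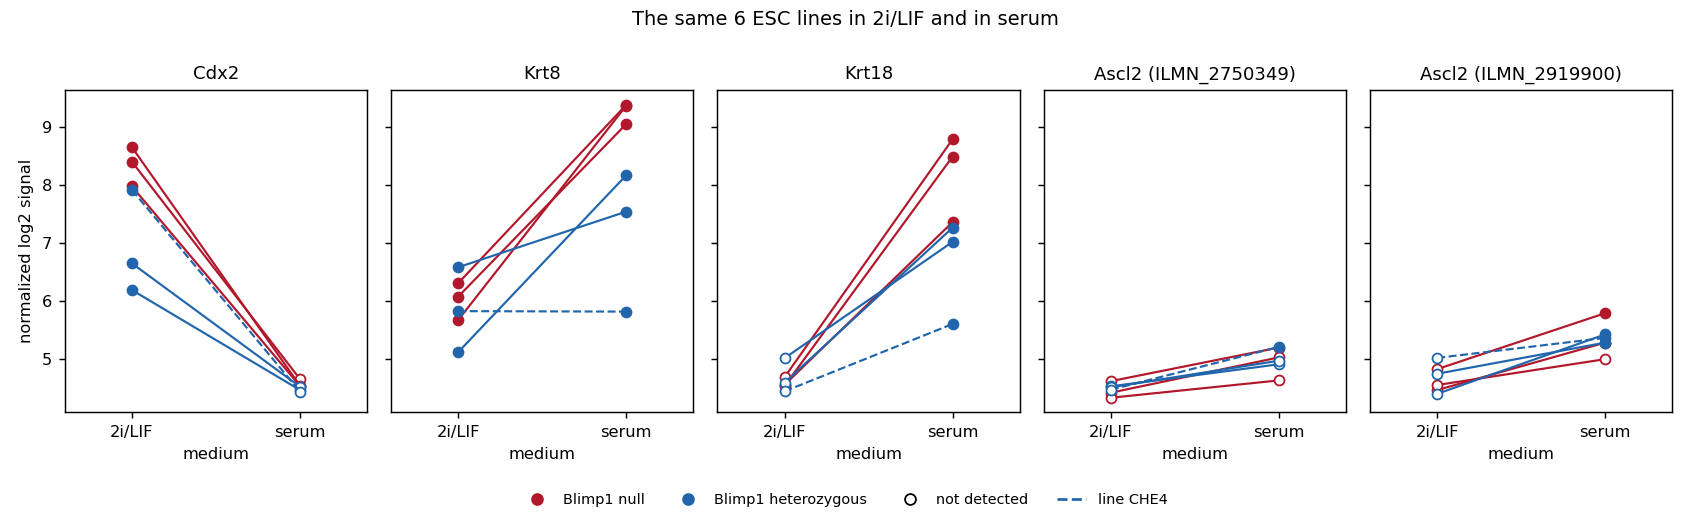
Normalized log2 signal (vertical axis) of the 5 probes in the same 6 ESC lines in 2i/LIF and in serum (horizontal axis). Lines join the arrays of 1 cell line, red for null and blue for heterozygous, with CHE4 dashed and open points not detected. Cdx2 falls and Krt18 climbs towards serum in all 6 lines, and Krt8 in CHE4 is level at 5.83 and 5.82.

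Ascl2 was near the limit of detection. Its highest level was on the J2.3 rESC array, and it was detected most often in ESCs in serum. With probe ILMN_2919900 it was detected on 5 of 6 serum arrays, at 5.28 in JAG1, 5.79 in JAG2, 5.42 in PAN1, 5.28 in PUM3 and 5.36 in CHE4, and not in B12 (5.0). In the 2i/LIF arrays the undetected signal was 4.46, 4.82 and 4.55 in the null lines and 4.40, 4.74 and 5.02 in the heterozygous lines. Only CHE4 in 2i/LIF exceeded the lowest serum array, and every line was lower in 2i/LIF than in serum, by 0.35 to 1.03. This comparison was not tested for Ascl2, because fewer arrays than the filter asks for detected it. With no filter the difference of 2i/LIF from serum was -0.66 (limma adjusted p = 0.00399), at signals near the limit of detection. EpiSCs, at 4.37 to 4.86 and all undetected, lay below every serum array (difference -0.73, SE 0.14, limma adjusted p = 0.000903, at least 1.21-fold lower). In rESCs Ascl2 was detected in J2.3 at 5.90, against 5.27 in BL2, 4.80 in BL6, 4.53 in BL3 and 4.82 in BL7, all undetected. The rESC difference from serum was -0.32 (limma adjusted p = 0.403). The MEF array had 4.44.

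The other Ascl2 probe, ILMN_2750349, was detected on 3 arrays, J2.3 rESC (5.94), JAG1 in serum (5.20) and CHE4 in serum (5.21). Its remaining rESC arrays had 4.49 to 4.75, its epiSC arrays 4.35 to 4.66 and its 2i/LIF arrays 4.33 to 4.62. It entered no test with the filter, and no fold is given for it. With no filter its difference from serum was -0.48 in 2i/LIF (limma adjusted p = 0.00254) and -0.54 in epiSCs (limma adjusted p = 0.00386). The dimmest detected signals averaged 5.08 in epiSCs and 5.04 in 2i/LIF, and its mean in serum lay below them (4.99 where normalized with epiSCs and 4.93 where normalized with 2i/LIF). The 2 Ascl2 probes disagreed in which serum arrays they detected, with JAG1 and CHE4 detected by both.

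**Figure D3:**
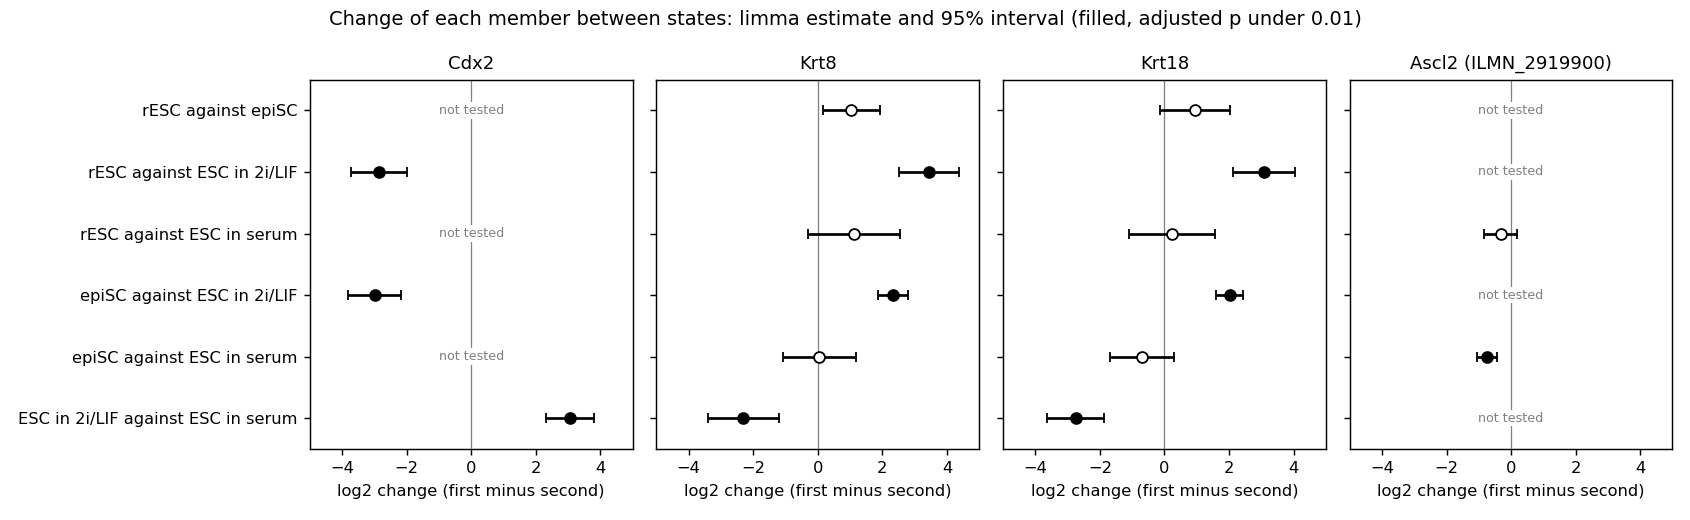
Fitted log2 change (horizontal axis, positive where the first named state is higher) of each gene in the 6 comparisons of states (vertical axis). Points are limma estimates with 95% intervals, filled where the adjusted p was under 0.01. The only filled Cdx2 point to the right of 0 is ESCs in 2i/LIF against serum, at 3.06, where Krt8 and Krt18 lie at -2.30 and -2.75.

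Set against all probes tested, the counts of called member genes were as follows, with a call at an adjusted p under 0.01. In 2i/LIF against serum 1 member was higher (Cdx2) and 2 were lower (Krt8 and Krt18), of 3 tested, beside 15.7% higher and 15.4% lower among all 13274 probes. In rESCs against 2i/LIF 2 of 3 were higher and 1 was lower, beside 9.74% and 8.97%. In epiSCs against 2i/LIF 2 of 3 were higher and 1 was lower, beside 22.1% and 21.9%. These 3 comparisons share the arrays in 2i/LIF, so that their directions are not independent. In rESCs against epiSCs 0 of 2 members were called, beside 10.6% higher and 12.5% lower of all probes, of which 6218 of 13418 had an unadjusted p under 0.05. In rESCs against serum 0 of 3 were called, beside 0.0519% and 0.141%, with 3539 of 13495 probes at an unadjusted p under 0.05. In epiSCs against serum 0 of 3 were higher and 1 was lower (Ascl2), beside 18.8% and 18.3%.

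Fewer fibroblast markers were detected in 2i/LIF, where both keratins were lowest. Of 21 named fibroblast markers 15 to 18 were detected in rESCs, 13 to 17 in epiSCs, 4 to 7 in 2i/LIF, 15 to 17 in serum, and all 21 in MEF. Their summed linear level was 4913 to 16138 in rESCs, 4843 to 6421 in epiSCs, 846 to 1314 in 2i/LIF, 5966 to 9019 in serum, with 91084 in MEF. Acta2, Bgn, Dcn and Lox were detected on all arrays of rESCs, epiSCs and ESCs in serum and on 0 in 2i/LIF. Vim, Col5a1 and Fstl1 were detected on all 22 pluripotent arrays, those in 2i/LIF included, and Pdgfrb on 0 of the 22. The MEF array, with the highest sum, detected neither Krt8 nor Krt18. Of 12 primitive endoderm markers 4 to 8 were detected in rESCs, 8 to 11 in epiSCs, 2 to 5 in 2i/LIF, 6 to 9 in serum, with 7 in MEF. Their summed linear level was 622 to 1293 in rESCs, 832 to 967 in epiSCs, 511 to 737 in 2i/LIF, 715 to 1520 in serum, with 4919 in MEF. The part of these cells in the keratin differences was not tested. Of 7 trophoblast stem cell markers 0 to 3 were detected in rESCs, 1 or 2 in epiSCs, 1 or 2 in 2i/LIF, 2 in serum and 0 in MEF. Their summed linear level, with Cdx2 included, was 157 to 405 in rESCs, 182 to 194 in epiSCs and 225 to 548 in 2i/LIF. It was 201 to 232 in serum and 151 in MEF. Eomes, a T-box factor that trophoblast stem cells need, was detected in 2 epiSC arrays and on none in 2i/LIF, where Cdx2 was highest. Gata3, on the same list, went the other way, with 4 arrays detected in 2i/LIF, 1 in epiSCs, 1 in serum and 0 in rESCs.

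Krt8 and Krt18 followed each other more closely than any other pair of genes with either of them. Over the 22 pluripotent arrays their levels had a Pearson correlation of 0.94, and each was the gene most like the other among 9774 genes with a detected probe. The value was 0.92 without J2.3 and 0.88 after removing the mean of each state. It was 0.94 over the 6 lines in serum and 0.46 over the 6 lines in 2i/LIF, where Krt18 was not detected. The next genes for Krt8 were Gbp2 (0.89), an interferon-induced GTPase, and Plaur (0.87), the urokinase receptor. Plaur (0.93) and Thbs2 (0.91), a matrix glycoprotein, followed for Krt18. Cdx2 ran against the keratins, with -0.67 for Krt8 and -0.73 for Krt18, but within states these values were 0.18 and 0.07.

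**Figure D4:**
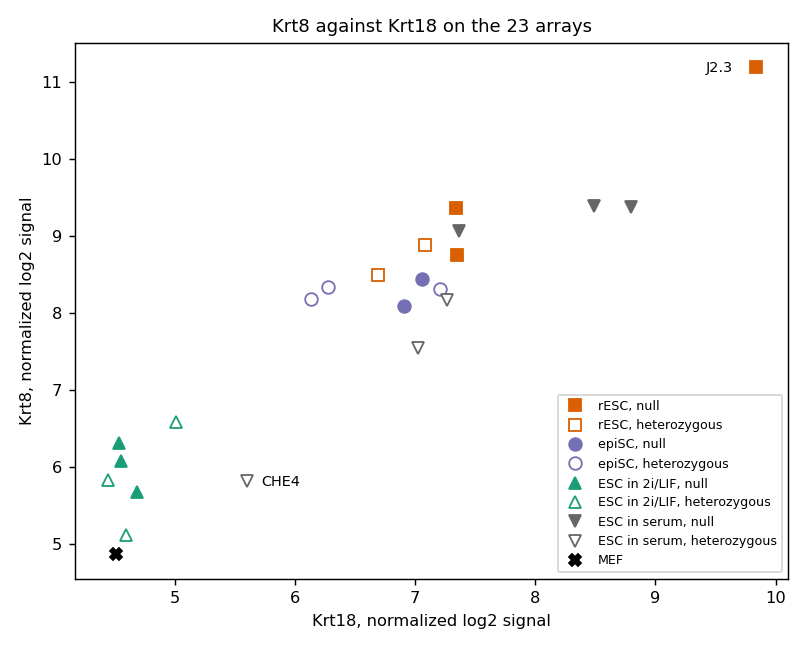
Level of Krt8 (vertical axis) against Krt18 (horizontal axis), both normalized log2 signal, with 1 point per array. The arrays in 2i/LIF lie at the bottom left and the J2.3 rESC array (Krt8 11.19, Krt18 9.84) at the top right. CHE4 in serum (Krt8 5.82, Krt18 5.60) lies between the media.

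The genes most like Cdx2 were Gpr83 (0.98), a G protein-coupled receptor, Krtdap (0.97) and Pglyrp1 (0.96). For Gpr83 the value within states was 0.90. The genes most like Ascl2 with probe ILMN_2750349 were Sct (0.91), the hormone secretin, Dlx3 (0.90), a homeobox factor that the placenta requires, and Ppbp (0.90), a platelet chemokine. Without J2.3 these values were 0.88, 0.82 and 0.77. With ILMN_2919900 they were Cxcl16 (0.88), a chemokine, Ccn1 (0.88), a matrix protein, and Cmtm4 (0.87). All of these correlations are over arrays that share a state and a medium, and they are given as descriptions.

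The J2.3 rESC line stood apart in the members. It had the highest level of Krt8, Krt18 and both Ascl2 probes on any array, while Cdx2 was not detected there. The next highest level was 9.39 for Krt8 (JAG1 in serum) and 8.79 for Krt18 (JAG2 in serum). Of 24 other detected genes on the lists of trophoblast regulators and products, 7 (29.2%) were detected in J2.3 at the highest level of the 22 pluripotent arrays, against 827 of 11150 named genes (7.42%). The following genes were chosen after their values were seen. Plac1, a placental membrane protein, had a level of 9.04 in J2.3, against at most 4.52 in the other rESCs and 5.58 in any other pluripotent array. Prl2c2 (proliferin), a hormone of trophoblast giant cells, had 11.00 in J2.3, against at most 7.36 elsewhere. The simple keratins Krt7 (7.58) and Krt19 (7.41) were also highest in J2.3, against at most 5.84 and 6.17. Hand1, which giant cells require, was detected in J2.3 alone (5.30). Other genes on the same lists went the other way. Cdh3 was not detected in J2.3 (5.14), against 5.67 to 6.82 in the other rESCs. Klf5 (10.94, against 11.13 to 11.70) and Bmp4 (8.14, against 8.87 to 9.76) lay below all other rESCs. Eomes, Gata3, Plet1 and Tspan8 were not detected in J2.3. The MEF array detected none of Plac1, Prl2c2, Krt7 and Krt19 (4.62, 4.68, 4.69 and 4.32). Markers of other cells were also high in J2.3. The sum of fibroblast markers was 16138 there, against 4913 to 7718 in the other rESCs, and it was the highest of the 22 pluripotent arrays. The sum of primitive endoderm markers was 1293, against 622 to 750 in the other rESCs, with up to 1520 in serum. The 2 named surface ectoderm and gut markers, Krt14 and Cdx1, summed to 133, against 49.2 to 85.8 in the other rESCs and at most 98.9 in ESCs. Of these only Krt14 was high in J2.3 (6.73, against at most 5.41 in any other pluripotent array). Cdx1 was not detected in J2.3 (4.71) and reached 5.44 in the other rESCs. Hoxc6 (7.61), Hoxb7 (6.14) and Hoxb5 (5.24), trunk patterning genes, were at their highest among pluripotent arrays in J2.3 and higher still in MEF (9.99, 8.32 and 6.90). The part of such cells in the keratin and trophoblast gene levels of J2.3 was not tested.

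**Figure D5:**
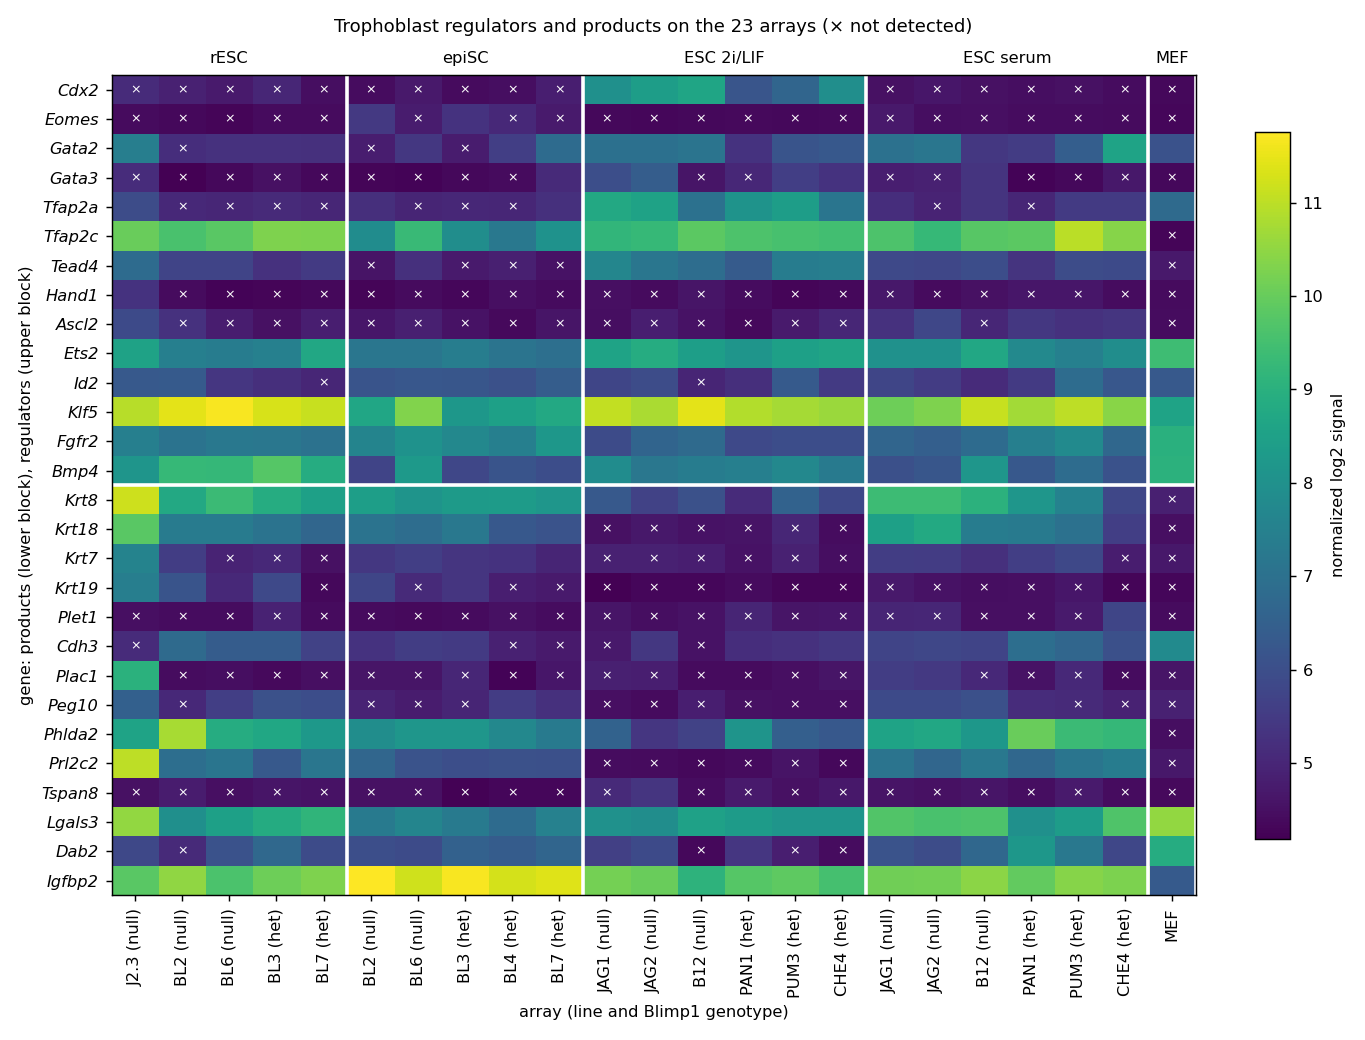
Normalized log2 signal (colour) of the named trophoblast regulators (upper block) and products (lower block), 1 row per gene, on the 23 arrays (columns) by state and line. Crosses mark values that were not detected. Cdx2 is detected in 2i/LIF alone, and the J2.3 column holds the highest values of Plac1 (9.04) and Prl2c2 (11.00).

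Between genotypes no member was called in any state. In 2i/LIF Cdx2 was higher in the null lines (7.98, 8.40 and 8.65) than in the heterozygous lines (6.19, 6.65 and 7.92), with no overlap. The difference of 1.45 did not pass over all probes (SE 0.42, 95% interval 0.48 to 2.43, limma adjusted p = 0.882), and 5.86% of the 13380 probes tested had null lines that lay above all heterozygous lines. In serum Krt8 was higher in the null lines (9.06 to 9.39) than in the heterozygous lines (5.82 to 8.17), again with no overlap (difference 2.10, SE 0.53, 95% interval 0.87 to 3.33, limma adjusted p = 0.910). Krt18 in serum was 7.36 to 8.79 in null and 5.60 to 7.27 in heterozygous lines (difference 1.58, SE 0.51, 95% interval 0.40 to 2.76, limma adjusted p = 0.910). In serum 4.89% of probes were not overlapping and higher in null lines. Without CHE4 these differences were 1.44 for Krt8 and 1.09 for Krt18. In 2i/LIF the genotypes overlapped for Krt8 (difference 0.17, limma adjusted p = 0.952).

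In rESCs the keratin differences between genotypes rested on J2.3. The difference of null from heterozygous lines was 1.08 for Krt8 (95% interval -0.52 to 2.68) and 1.30 for Krt18 (-0.51 to 3.11), with an adjusted p of 0.9996 for both in limma, and without J2.3 it was 0.37 for Krt8 and 0.47 for Krt18. In epiSCs the difference was 0.43 for Krt18 (limma adjusted p = 0.544) and under 0.01 in size for Krt8. Over all states it was 0.90 for Krt8 and 0.85 for Krt18 (limma adjusted p = 0.640 for both). Of all probes 0% were called between genotypes in rESCs, in 2i/LIF, in serum and over all states, and 0.404% in epiSCs. At an unadjusted p under 0.05 there were 673 of 13961 probes in rESCs, 2309 of 14355 in epiSCs, 733 of 13380 in 2i/LIF, 608 of 13527 in serum and 1003 of 13076 over all states.

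The response to medium was not shown to differ by genotype either. The change of Krt8 between 2i/LIF and serum was -3.28 in null and -1.33 in heterozygous lines (difference -1.95, limma adjusted p = 0.998). For Cdx2 and Krt18 the sizes of these changes are not given, since each was undetected in 1 of the media, and the limma adjusted p was 0.998 for both. For rESCs against epiSCs the difference of the changes was 1.07 for Krt8 and 0.83 for Krt18 (adjusted p = 0.998). These tests called 0% of all probes, with 458 of 13274 for the media and 266 of 13418 for rESCs against epiSCs at an unadjusted p under 0.05.

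The list of trophoblast regulators holds Cdx2 and Ascl2. Of 10 tested in 2i/LIF against serum 3 were higher and 0 lower, beside 15.7% and 15.4% of all probes, with a median of 0.43 over the list. Without Cdx2 the count was 2 of 9, close to that share. These were Cdx2, Tfap2a (2.75, limma adjusted p = 6.38e-06), which encodes an AP-2 factor, and Tead4 (1.34, adjusted p = 0.000113), the TEAD factor that acts before Cdx2 in the embryo. In rESCs against 2i/LIF 2 of 10 were higher, Bmp4 (1.59) and Fgfr2 (1.02), and 3 were lower, Cdx2, Tfap2a (-2.82) and Tead4 (-1.36), beside 9.74% and 8.97% of all probes. Without J2.3 2 of 11 were higher and 5 lower there, while the calls over all probes rose from 2528 to 3202. All shares of all probes given are with J2.3. Counts without J2.3 in this list and those below thus have no share beside them. In epiSCs against 2i/LIF 1 of 11 was higher and 7 were lower (22.1% and 21.9% of all probes), led by Cdx2, Tfap2a (-2.87), Tead4 (-2.29) and Klf5 (-2.03). In rESCs against epiSCs 4 of 8 were higher and 0 lower (10.6% and 12.5% of all probes), namely Bmp4 (2.66), Klf5 (2.37), Tfap2c (1.89) and Tead4 (1.06), and without J2.3 4 were higher and 1 lower. Against serum, epiSCs had 0 of 10 higher and 5 lower (18.8% and 18.3% of all probes), with Tfap2c (-1.89), Klf5 (-1.70) and Ascl2 among them. In rESCs against serum 0 of 10 were called, beside 0.0519% higher and 0.141% lower of all probes. Without J2.3 1 was called (Bmp4, 2.69). The median of all probes tested was between -0.04 and 0.03 in the 6 comparisons of states.

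The list of products of trophoblast and placenta holds Krt8 and Krt18. Of 8 tested in 2i/LIF against serum 0 were higher and 6 lower (15.7% and 15.4% of all probes), with a list median of -1.93. Krt8 and Krt18 were among the 6, so that this count repeats their own result in part. Phlda2 (-2.62), an imprinted regulator of placental growth, and Prl2c2 (at least 3.76-fold lower) were also among them. In rESCs against 2i/LIF 4 of 8 were higher and 0 lower, namely Krt8, Krt18, Phlda2 (2.66) and Prl2c2 (at least 6.28-fold higher), beside 9.74% and 8.97% of all probes. J2.3 raised the Prl2c2 value. Without J2.3 the Prl2c2 bound was 3.53-fold (difference 2.55, limma adjusted p = 6.94e-07), and 5 of 8 genes were higher. EpiSCs had 7 of 9 higher than 2i/LIF, among them Krt8, Krt18, Igfbp2 (1.71) and Phlda2 (1.43), and 1 lower (22.1% and 21.9% of all probes). In rESCs against epiSCs 1 of 11 was higher, the galectin Lgals3 (1.66), and 1 lower, Igfbp2 (-1.37), beside 10.6% and 12.5% of all probes, and without J2.3 2 were higher. Against serum, epiSCs had 1 of 10 higher, Igfbp2 (1.26), and 4 lower, led by Lgals3 (-1.83), beside 18.8% and 18.3% of all probes. In rESCs against serum 0 of 10 were called, beside 0.0519% and 0.141% of all probes.

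Among keratins and proteins of epithelial junctions, again with Krt8 and Krt18 included, 1 of 15 was higher and 9 were lower in 2i/LIF against serum (15.7% and 15.4% of all probes), with a median of -1.23. Krt8 and Krt18 were among the 9, so that this count too repeats their own result in part. Esrp1, an epithelial splicing factor, was at least 10.8-fold lower, and the tight junction protein Cldn6 (-3.77) was lower, while the desmosomal cadherin Dsg2 (0.90) was higher. In rESCs against 2i/LIF 7 of 16 were higher and 1 lower (9.74% and 8.97% of all probes), with Esrp1 at least 14-fold higher and Cldn6 at 3.56. Krt8 and Krt18 were again among the 7. In rESCs against epiSCs 8 of 19 were higher and 0 lower (10.6% and 12.5% of all probes), led by Cldn4 (3.74) and Krt42 (3.52), while Krt8 and Krt18 themselves were not called. In epiSCs against serum 0 of 19 were higher and 9 lower (18.8% and 18.3% of all probes), with Cldn4 (-4.64) and Grhl2 (-3.26), a regulator of epithelial genes, among them. EpiSCs had 7 of 17 higher, Krt8 and Krt18 among them, and 7 lower than 2i/LIF (22.1% and 21.9% of all probes). In rESCs against serum 0 of 19 were called, beside 0.0519% and 0.141% of all probes.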

How the data were processed

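RNA of 23 cultures was hybridised to Illumina Mouse WG-6 v2.0 arrays, 1 array per sample. The deposited table holds the non-normalized signal intensity of each probe and a detection p-value per array, as the authors exported them from the scanner's software. A table of log2 values that the authors processed with lumi (variance stabilisation and quantile normalization) served as an alternative. Per the study's methods limma was used there as well. The table has 2 columns that match no sample analysed here, and they were not used. The genes were named from the platform annotation, which gave 1 symbol for 17604 probes, several for 8 and none for 2870. A further 24799 probes are not in that annotation and are not named here.

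Intensities were background corrected and quantile normalized with neqc of limma 3.58.1 (R 4.3.3), with negative controls inferred from the detection p-values and an offset of 16, over the arrays of each comparison for tests and over all 23 arrays for levels. Neither the labels nor the table gave a slide or scan batch. Probes were tested when detected (detection p under 0.01) in at least the number of arrays of the smaller group. Groups were compared with lmFit and eBayes, with p-values adjusted by Benjamini-Hochberg over all probes tested and called under 0.01. Several probes of a gene were kept apart. A probe undetected throughout the dimmer group was given as a bound, as the mean of the brighter group against, per array, the higher of the dimmest detected signal and the probe's own. Named genes of a list were the members and up to 4 called genes with the largest change. The scripts were tested on simulated data.

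The ESC lines were the same in both media, and 4 lines were run as rESCs and epiSCs, so line was tried as a block. Same-line deviations correlated at 0.12 to 0.44 between the media, and at 0.52 in BL2, 0.45 in BL3, 0.26 in BL7 and -0.18 in BL6 between rESCs and epiSCs. Alternatives were no background correction, the lumi values, no filter, genotype as a covariate, 1 fit of all 22 pluripotent arrays, an intensity trend and leaving out each array. The lists were trophoblast regulators, products, keratins and junctions, caudal and Hox genes, WNT response, neighbours of Ascl2 and cell type markers. The lists and the members were chosen with earlier results of these data known. Blimp1 and Elf5 were not analysed here, and the surface ectoderm and gut markers had 2 named genes.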

Additional observations from a re-analysis of the deposited data

Results flagged for a closer look

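In 20 groups of 5 or 6 arrays, 1 array lay far from the rest in 2, where chance gives about 1 in 20. Both were the J2.3 line among the 5 rESC arrays. Krt18 had a level of 9.84 there, against 6.69 to 7.35 in the other rESCs. Ascl2 with probe ILMN_2750349 had 5.94 there, against 4.49 to 4.75. Beside these, J2.3 had the highest Krt8 level (11.19), at a gap that was not large enough for the same screen, and the highest sum of fibroblast markers among the 22 pluripotent arrays.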

How the results depend on the processing

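Over the comparisons of states 286 of the alternative values kept their direction and side of the threshold, 7 reversed and 1 was weaker, and over those of genotype 230 were the same and 10 reversed. Krt8 in 2i/LIF against serum was -2.30 with no filter (adjusted p = 0.0143), so that 2 of the 3 members tested with the filter stayed called. With no filter Ascl2 also entered this comparison, and both of its probes passed near the limit of detection. Its difference was -0.66 with ILMN_2919900 (limma adjusted p = 0.00399) and -0.48 with ILMN_2750349 (limma adjusted p = 0.00254). Krt8 in epiSCs against serum was -0.0556 without background correction, -0.0790 with the lumi values and -0.43 to 0.27 when leaving out 1 array. Krt18 in rESCs against serum ranged from -0.31 to 0.51 in this way. The member count in epiSCs against serum ranged from 0 to 1, because Ascl2 was not tested when a serum array that detected it was left out. Between genotypes, Krt8 in epiSCs was 0.0151 with the replicate block and -0.16 to 0.16 without 1 array, Krt8 in 2i/LIF was -0.19 to 0.56, and Ascl2 (ILMN_2919900) in serum was 0.0055 without background correction, 0.0057 with the lumi values and -0.22 to 0.18 without 1 array.

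With line as a block the adjusted p in 2i/LIF against serum was 5.71e-05 for Cdx2, 0.00218 for Krt8 and 0.000236 for Krt18. In the 4 lines with rESCs and epiSCs, Krt8 differed by 0.60 (adjusted p = 0.0447 with the block and 0.0323 without) and Krt18 by 0.29 (0.178 and 0.405), and the block changed no call. Between genotypes the arrays shared only a number. Over all probes, rESCs against serum had 26 calls, 5 with no filter, 492 in the fit of all 22 arrays and 3 to 494 without 1 array. Null against heterozygous epiSCs had 58 calls, with 0 to 188 under the alternatives. Low signal limits Ascl2 in every state and Cdx2 outside 2i/LIF.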

Other observations

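Of genes that respond to WNT signalling, a list that includes Cdx2, Cdx1 and Ascl2, 6 were tested in 2i/LIF against serum, and 4 were higher and 1 lower (15.7% and 15.4% of all probes), with a median of 2.57. Sp5 (4.79), Notum (3.77) and Axin2 (2.07), targets that dampen the pathway, were higher beside Cdx2, and the cyclin Ccnd2 (-2.34) was lower. In epiSCs against 2i/LIF 2 of 8 were higher, Ccnd2 (4.72) among them, and 5 were lower (22.1% and 21.9% of all probes), with Notum at least 11.3-fold lower. In rESCs against 2i/LIF 1 of 7 was higher and 4 were lower (9.74% and 8.97% of all probes), and the counts were the same without J2.3. In epiSCs against serum 5 of 7 were higher, led by Sp5 (3.51), and 1 was lower (Ascl2), beside 18.8% and 18.3% of all probes. In rESCs against epiSCs 1 of 6 was higher and 2 were lower (10.6% and 12.5% of all probes), and without J2.3 1 of 8 was higher and 3 were lower. In rESCs against serum 1 of 7 was higher (Notum, 1.55), beside 0.0519% of all probes, and 2 were higher without J2.3. Of caudal and posterior Hox genes, which Cdx factors are known to act on in the trunk, 4 were tested in 2i/LIF against serum. Of these 3 were higher and 0 lower (15.7% and 15.4% of all probes). They were Hoxc9 (1.50), Hoxa7 (1.10) and Cdx2, the member that the list includes. In epiSCs against 2i/LIF 1 of 6 was higher and 4 were lower (22.1% and 21.9% of all probes), with Cdx1 at -1.27. In rESCs against 2i/LIF 0 of 5 were higher and 2 lower (9.74% and 8.97% of all probes), or 3 lower without J2.3. Of 2 tested in epiSCs against serum Hoxb2 (1.29) was higher and Hoxc6 (-0.73) lower (18.8% and 18.3% of all probes). In rESCs against epiSCs 0 of 2 were higher and 1 was lower (Hoxb2, -1.43), beside 10.6% and 12.5% of all probes. Without J2.3 1 of 3 was higher there and 2 were lower. In rESCs against serum 0 of 1 was called, beside 0.0519% and 0.141% of all probes.

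Of genes that neighbour Ascl2 on chromosome 7, 0 of 9 tested were higher and 4 lower in 2i/LIF against serum (15.7% and 15.4% of all probes). These were the growth factor Igf2 (-3.93), Phlda2 (-2.62), the cell cycle inhibitor Cdkn1c (-2.49) and Mrpl23 (-0.66). Imprinting of the listed genes was not tested, and the counts are of genes in this region and not of imprinted genes. The list includes Ascl2 itself, which was tested where epiSCs or rESCs were compared with serum. In epiSCs against 2i/LIF 5 of 7 were higher and 1 lower (22.1% and 21.9% of all probes), with Igf2 at 6.59 and Cdkn1c at 5.21. In epiSCs against serum 3 of 9 were higher and 2 lower, Ascl2 among the lower, beside 18.8% and 18.3% of all probes. Relative to epiSCs, rESCs had 0 of 8 higher and 3 lower (2 without J2.3), beside 10.6% and 12.5% of all probes. The rESC count against 2i/LIF was 3 of 8 higher and 1 lower (9.74% and 8.97% of all probes). With serum as the reference, 0 of 10 were called in rESCs (0.0519% and 0.141% of all probes).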
